A study of Mus musculus with 2 samples.

Results

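Collagens are the structural proteins of the extracellular matrix. Fibrillar collagens form the cables of connective tissue, collagen IV forms the sheet of the basement membrane on which the urothelium and the vessels rest, and FACIT collagens (fibril-associated collagens with interrupted helices) sit on the surface of fibrils. In the ureter, mesenchymal cells of the lamina propria, adventitia and muscle layer are known as the main source of fibrillar collagen, whereas epithelial cells contribute collagens of the basement membrane and of its anchors. The genes examined were all those named Col, a number, a and a number on the array, which gave 44 collagen genes of 29923 genes measured. They comprised 11 fibrillar genes, 6 basement membrane genes (Col4a1 to Col4a6), 9 FACIT genes and 18 others. They were read by 69 probes. For 64 of these the transcript is listed in RefSeq (GRCm38.p6), where 0 carry another symbol.

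Ureters were taken from NMRI mouse embryos at E18.5. Pparg-cKO embryos carried Pax2-cre/+; Pparg(fl/fl), and control embryos were labelled Pparg(fl/?), with the second allele not stated. Pparg encodes a ligand-activated nuclear receptor. Per the study, the Pax2-cre line recombines in the nephric duct, the ureteric epithelium and the renal collecting ducts. The ureteric mesenchyme is not among the tissues named there. RNA of pooled ureters of sex-sorted embryos was hybridised to 2 two-colour arrays on 1 slide, with 1 Pparg-cKO pool and 1 control pool on each. Replicate 1 was female and replicate 2 male, and the dyes were exchanged, so sex, dye orientation and array cannot be told apart. Each group therefore had 2 pools, and no pool was measured again. The median spot signal was between 293 and 334 in the channels, and 0 spots were saturated.

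Ratios are Pparg-cKO over control in the direction of the deposited value table, on the log2 scale. This direction is likely but not settled. The dye labels give the opposite direction on both arrays, while the columns of the deposited table are titled Pparg-cKO against control and run the way that the study describes for urothelial genes in sections. If the dye labels are right, every higher and lower below is exchanged, but sizes, totals and p-values are not affected. Pparg, the targeted gene, had processed signals of 12357 and 6113 in the female Pparg-cKO and control pools and of 12930 and 6688 in the male ones (log2 ratios of 0.98 and 0.96). The place of its probe relative to the floxed exons was not analysed here, so this value was not used as a check of the labels. Markers of the labelled tissue were present in every pool. The summed signal of 6 urothelial markers was between 45756 and 66770, that of 5 smooth muscle markers between 91286 and 105248, and that of 5 fibroblast and lamina propria markers between 52584 and 57524. In bulk tissue, fewer cells of a type and less RNA per cell cannot be told apart.

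Of the 44 collagen genes, 42 entered the test, and Col9a3 and Col13a1 were left out because neither channel was well above background on at least 1 array (processed signals of 2.74 to 4.53 for Col9a3 and of 0.716 to 1.80 for Col13a1). Among the 42, 30 reached a processed signal of 100 on both arrays and 12 did not. No collagen gene reached 1.5-fold in the same direction on both arrays (0 of 30 genes with a signal of at least 100, against 1.84% of all 14015 such genes, or 0.792% for higher and 1.05% for lower). Below that signal limit, Col15a1 passed 1.5-fold on both arrays with scanner-processed signals and in the deposited table, and Col17a1 in the deposited table (log2 ratios of 0.62 and 1.39). In limma, 0 of 42 had an adjusted p under 0.05, against 0.751% of all 22499 genes. At an unadjusted p under 0.05 there were 8 collagen genes (19% of 42, against 8.51% of all genes), all of them higher in Pparg-cKO (against 4.31% of all genes): Col1a1, Col1a2, Col2a1, Col4a5, Col4a6, Col5a3, Col15a1 and Col17a1. The lowest adjusted p of a collagen gene was 0.193, for Col4a5. With normexp without an offset, limma called 4 of these 8 (9.52% of 42, against 2.54% of all genes): Col4a5, Col4a6, Col15a1 and Col17a1.

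The arrays differed for the collagen genes. On the male array, 10 of 31 collagen genes with a signal of at least 100 were at least 1.5-fold higher in Pparg-cKO (32.3%, against 6.7% of 14405 genes), and 0 were as much lower (against 2%). On the female array, 0 of 30 were at least 1.5-fold higher (against 1.25% of 14092 genes) and 1, Col25a1, was as much lower (against 1.9%). The 10 genes were Col1a1, Col2a1, Col4a5, Col4a6, Col5a1, Col5a3, Col7a1, Col16a1, Col17a1 and Col18a1. The signal limit was applied to the brighter channel. Col17a1 met it on the male array in the Pparg-cKO pool alone, and Col25a1 on the female array in the control pool alone. With a limit of 1000, chosen after the values were seen, 7 of 18 collagen genes were at least 1.5-fold higher on the male array (38.9%, against 6.49% of 6668 genes), of which Col4a6 and Col5a3 met it in the Pparg-cKO pool alone. Of any size, 34 of 42 were higher on the male array (81%, against 52.3%) and 22 on the female array (52.4%, against 48.2%). Both ratios were above 0 for 18 collagen genes (42.9%, against 26.6%) and below 0 for 4 (9.52%, against 26.2%), while 16 were lower in the female and higher in the male pair (38.1%, against 25.7%) and 4 the reverse (9.52%, against 21.6%). The male ratio lay above the female ratio for 34 of 42 (81%, against 55.2%). With 1 array per sex, the difference between arrays could not be tested.

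**Figure D1:**
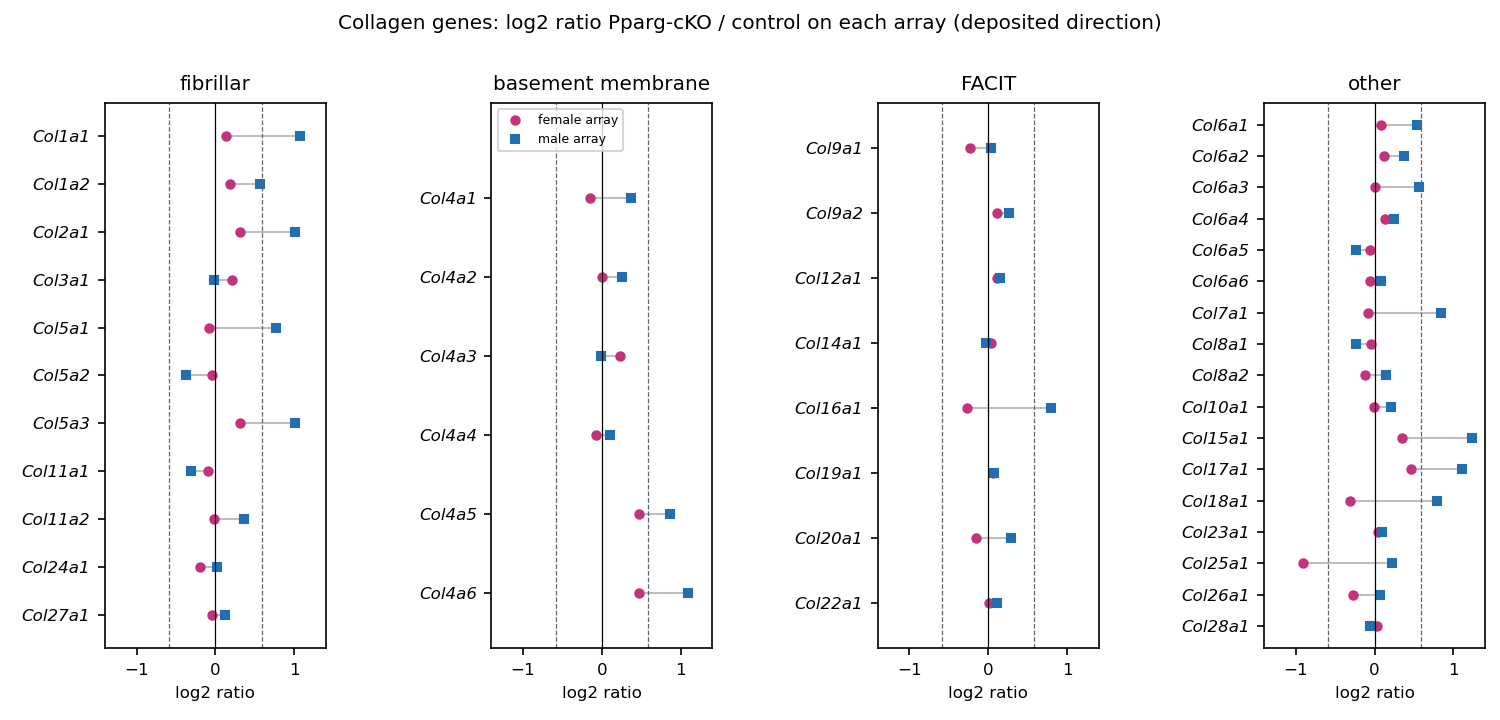
Log2 ratio of Pparg-cKO over control for the 42 collagen genes tested, by class; circles are the female array, squares the male array, grey lines join the values of a gene, and dashed lines mark 1.5-fold. Most squares lie to the right of the circles, and both values of Col4a5, Col4a6, Col15a1 and Col17a1 lie to the right of 0.

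**Figure D2:**
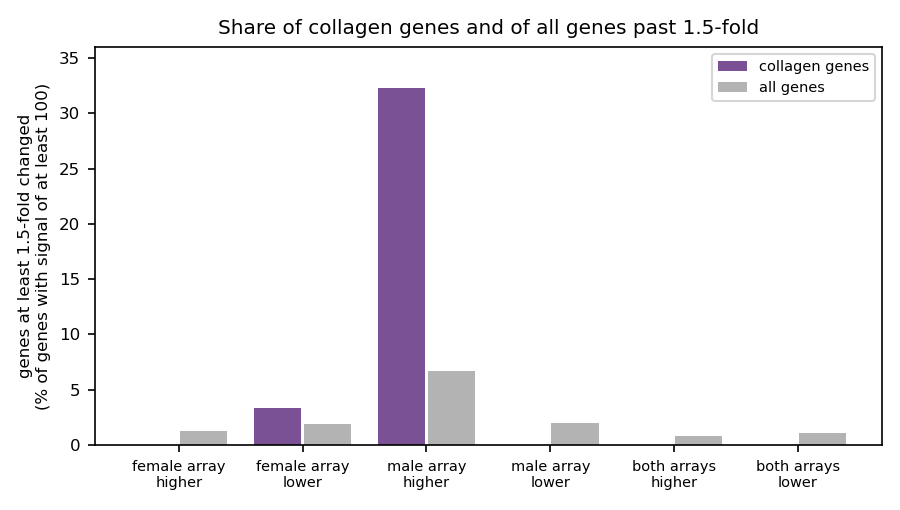
Share of genes at least 1.5-fold higher or lower in Pparg-cKO, as a percent of genes with a processed signal of at least 100, for collagen genes (purple) and all genes (grey). The share of collagen genes stands at 32.3% for higher values on the male array and at 0 for both arrays together.

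Col4a5 and Col4a6 had like ratios and lie side by side in the genome. Each collagen IV gene is paired head to head with another on its chromosome, and Col4a5 and Col4a6 encode chains that assemble into the same network in the basement membranes of bladder and other smooth muscle walls. In RefSeq (GRCm38.p6) their start sites lie 1343 bases apart on chromosome X, and those of Col4a1 and Col4a2 lie 21 bases apart on chromosome 8. The promoter windows of the X-linked pair and of Col17a1 are shown as examples from the 18 collagen genes higher in Pparg-cKO on both arrays. Each window runs from 250 bases before to 50 bases after the start. Capitals mark matches on either strand to the GC box GGGCGG, to the box known as CCAAT, to the box of TATA type written TATAAA, and to the half-site of nuclear receptors written AGGTCA, and no match overlaps another there:
Col4a5, GRCm38.p6 chrX:141475169-141475468, plus strand: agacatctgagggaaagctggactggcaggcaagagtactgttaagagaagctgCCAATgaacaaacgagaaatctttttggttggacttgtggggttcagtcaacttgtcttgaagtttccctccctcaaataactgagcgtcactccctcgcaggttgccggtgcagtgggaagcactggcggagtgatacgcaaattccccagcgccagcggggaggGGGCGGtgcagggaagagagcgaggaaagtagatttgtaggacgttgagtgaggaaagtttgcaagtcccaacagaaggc
Col4a6, GRCm38.p6 chrX:141474027-141474326, minus strand: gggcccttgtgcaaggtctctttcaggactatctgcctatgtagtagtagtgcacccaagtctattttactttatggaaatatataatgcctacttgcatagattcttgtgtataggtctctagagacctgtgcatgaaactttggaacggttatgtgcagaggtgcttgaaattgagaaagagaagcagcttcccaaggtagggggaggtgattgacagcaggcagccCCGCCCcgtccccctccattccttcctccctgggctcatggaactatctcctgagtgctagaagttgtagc
Col17a1, GRCm38.p6 chr19:47691993-47692292, minus strand: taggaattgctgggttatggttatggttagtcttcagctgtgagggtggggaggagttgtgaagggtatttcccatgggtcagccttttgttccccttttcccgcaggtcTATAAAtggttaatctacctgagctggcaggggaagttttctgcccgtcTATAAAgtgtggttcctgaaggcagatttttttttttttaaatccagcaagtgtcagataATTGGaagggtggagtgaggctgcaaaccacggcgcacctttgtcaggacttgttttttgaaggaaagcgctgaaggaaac

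Promoter windows of this length were given for 35 of the 44 collagen genes, in 38 windows. GGGCGG was in 23 of the 38 (60.5%, against 35.7% of 32851 promoters), CCAAT in 13 (34.2%, against 37.4%) and TATAAA in 5 (13.2%, against 13.6%). The half-site AGGTCA of nuclear receptors was in 8 windows (21.1%, against 16.3%), and it was not in the windows of Col4a5, Col4a6 or Col17a1. The classic PPAR response element, AGGTCA repeated after 1 base of any kind, was in 0 of the 38 and in 13 of all promoters (0.0396%). A match describes the letters of the window alone.

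Among the basement membrane genes, Col4a5 and Col4a6 were higher in Pparg-cKO on both arrays, and the mean ratios of the other 4 genes lay nearer to 0. Col4a5 (probe at mm9 chrX:138123547-138123606) had processed signals of 3129 and 2214 in the female Pparg-cKO and control pools and of 4253 and 2355 in the male ones. Both Pparg-cKO pools exceeded both control pools. Here and below, such comparisons of pools use processed signals, which were not normalised between the arrays. The share of all genes separated in this way was not computed. The log2 ratios were 0.48 and 0.86, a mean of 0.67 ± 0.27 (SD, n = 2 arrays, limma adjusted p = 0.193). Col4a6 (probe at mm9 chrX:137599990-137600049) gave 1098 against 742 in the female pools and 1681 against 811 in the male pools, again without overlap. Its log2 ratios were 0.47 and 1.09, a mean of 0.78 ± 0.44 (SD, n = 2 arrays, limma adjusted p = 0.242). A second, dimmer Col4a6 probe gave 0.21 and 0.43.

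Col4a1 and Col4a2, which encode the chains common to nearly all basement membranes, had positive ratios on the male array and female ratios of 0.00 or below. Col4a1 had signals of 7740 against 8549 in the female pools and 9825 against 7856 in the male pools, so the order of Pparg-cKO and control differed between the arrays (log2 ratios of -0.15 and 0.37, adjusted p = 0.939 in limma). Col4a2 had 1756 against 1704 and 2280 against 1921, with log2 ratios of 0.00 and 0.25 (adjusted p = 0.867 in limma). Col4a3 and Col4a4 encode chains known from the glomerular basement membrane of the kidney. Both stayed under a signal of 100 in every pool: Col4a3 had 57.0 against 45.7 in the female and 49.5 against 50.2 in the male pools, and Col4a4 had 86.03 against 93.5 and 89.0 against 83.5. The pools of Col4a3 and of Col4a4 overlapped, with mean log2 ratios of 0.10 ± 0.17 and 0.01 ± 0.12 (SD, n = 2 arrays). Over the class of 6, the female and male medians of the log2 ratio were 0.11 and 0.31, beside -0.01 and 0.01 over all genes.

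**Figure D3:**
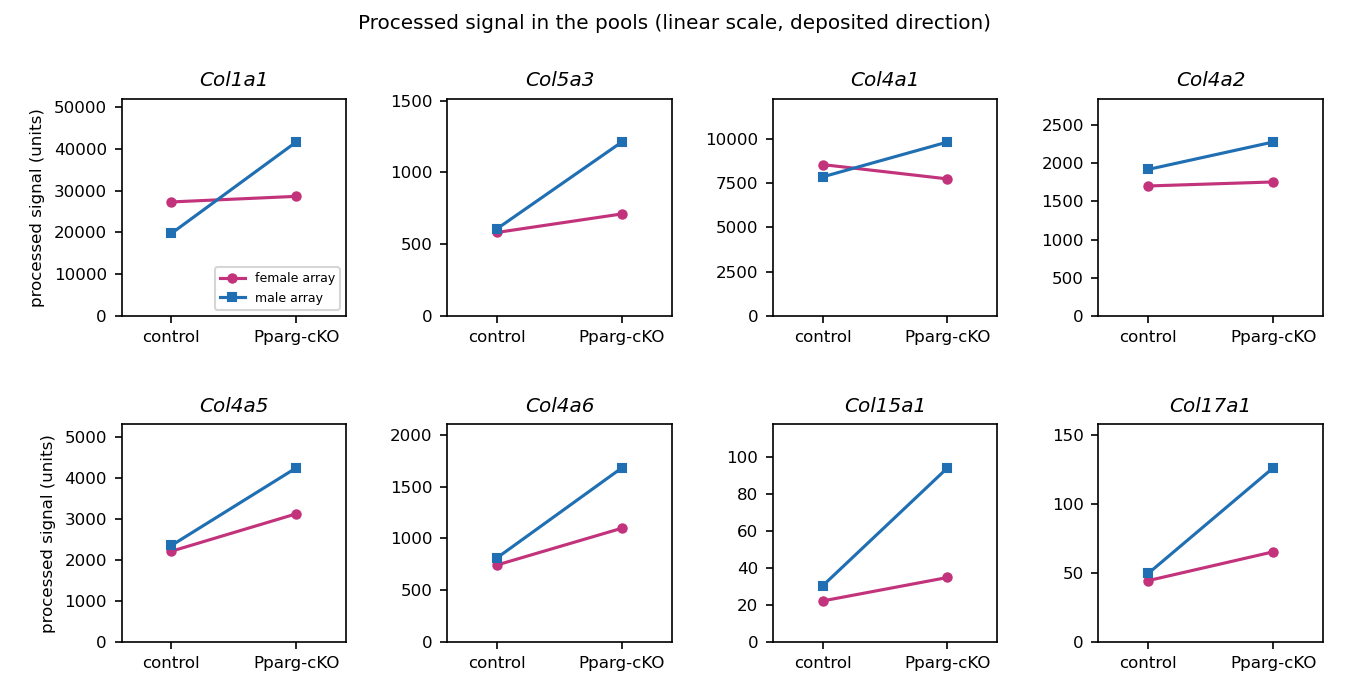
Processed signal (units, linear scale from 0) of 8 collagen genes in the control and Pparg-cKO pools of the female array (circles) and of the male array (squares). For Col4a5, Col4a6, Col15a1, Col17a1 and Col5a3 both lines go up from control to Pparg-cKO, whereas the lines of Col4a1 cross.

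Col17a1 and Col7a1 encode collagens that fasten basal epithelial cells to the basement membrane. Collagen XVII is a transmembrane component of the hemidesmosome, and collagen VII forms the anchoring fibrils beneath it. Col17a1 (probe at mm9 chr19:47720894-47720953) had signals of 65.3 against 44.4 in the female pools and 126 against 49.7 in the male pools, and both Pparg-cKO pools exceeded both control pools. Its log2 ratios were 0.46 and 1.10, a mean of 0.78 ± 0.45 (SD, n = 2 arrays, limma adjusted p = 0.250). At these low signals the offset of 50 pulls ratios towards 0, and without it the log2 ratios were 0.56 and 1.24. Col7a1 was past 1.5-fold on the male array but not on the female array. It had 120 against 130 in the female pools and 310 against 165 in the male pools, with log2 ratios of -0.08 and 0.84 (adjusted p = 0.757 in limma).

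The partners of collagen XVII in the hemidesmosome were measured beside it. Of 5 genes, 4 were higher on both arrays (against 26.6% of all genes) and 0 passed limma (against 0.751%), and their female and male medians of the log2 ratio were 0.06 and 0.58. Itgb4, the integrin subunit specific to hemidesmosomes, had signals of 611 against 657 in the female pools and 1801 against 584 in the male pools (log2 ratios of -0.14 and 1.69). Plec, which links the plaque to keratin filaments, had 1130 against 1111 and 2999 against 1328 (0.06 and 1.204). Dst, which encodes the plaque protein BPAG1 among other isoforms, gave 0.29 and 0.58. The partner subunit Itga6 and the tetraspanin Cd151 gave 0.20 and 0.16, and 0.02 and 0.15. As with Col7a1, the ratios of Itgb4 and Plec were above 1.5-fold on the male array alone. Of the keratins of basal or regenerating urothelium, Krt14 and Krt15 were higher by similar amounts on both arrays (log2 ratios of 1.11 and 0.90, and of 1.17 and 1.19), and both passed limma (adjusted p = 0.0427 and 0.0220). Krt17 gave 0.78 and 0.90 at low signals, whereas Krt5 had a negative ratio in the female pair and a positive one in the male pair (-0.86 and 0.35), and neither passed limma. The summed signal of these 4 keratins was 4577 and 6376 in the Pparg-cKO pools and 3843 and 3859 in the control pools. Over 6 urothelial markers the median log2 ratios were -0.63 and -0.23, and the summed signal was 45756 and 52501 in the Pparg-cKO pools and 66770 and 59079 in the control pools. Among these, Cdh1, the cadherin of epithelial junctions, gave log2 ratios of 0.07 and 1.10. The part of these markers in the values of Col17a1, Col4a5 and Col4a6 was not tested.

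Collagen XV and collagen XVIII, encoded by Col15a1 and Col18a1, are the proteoglycan collagens next to basement membranes, and the latter holds the endostatin domain. They differed from each other on the female array. Col15a1 (probe at mm9 chr4:47325273-47325332) had signals of 34.8 against 22.1 in the female pools and 94.2 against 30.3 in the male pools. Both Pparg-cKO pools were above both control pools. The log2 ratios were 0.35 and 1.24, a mean of 0.79 ± 0.63 (SD, n = 2 arrays, limma adjusted p = 0.385). Here too the offset bears on the value, and without it the log2 ratios were 0.49 and 1.51, with scanner-processed signals 0.65 and 1.63, and as deposited 0.70 and 1.58. A second probe gave 0.26 and 1.07, and the dimmest of its 3 probes, with signals of 6.33 to 11.3, gave -0.01 and 0.21. Its signal was under 100 in every pool, so it was not counted among the 10 genes above. Col18a1 had 1361 against 1633 in the female pools and 2632 against 1654 in the male pools, so it was lower in Pparg-cKO in the female pair and higher in the male pair (log2 ratios of -0.31 and 0.79, and of -0.39 and 0.69 with its other probe). Of genes with a signal of at least 100, 1.73% differed from control by at least 1.2-fold in opposite directions, against 2 of 30 collagen genes, Col16a1 and Col18a1. Its mean log2 ratio of 0.24 ± 0.78 (SD, n = 2 arrays) had an adjusted p of 0.907 in limma. Endothelial markers, from cells that also make collagen IV, XV and XVIII, had median log2 ratios of 0.10 and 0.14 over 4 genes, and their summed signal was 6173 and 6599 in the Pparg-cKO pools and 5971 and 5905 in the control pools. Their part in these values was not tested.

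Among the fibrillar genes, the abundant chains of collagen I were higher in Pparg-cKO on both arrays. After loess their larger ratios were on the male array, where the ratio of collagen III was near 0. Col1a1 had signals of 28646 against 27307 in the female pools and 41673 against 19761 in the male pools. In these processed signals, not normalised between the arrays, the male Pparg-cKO pool was the highest and the male control pool the lowest. The female pools lay between them. The log2 ratios were 0.14 and 1.07, a mean of 0.61 ± 0.66 (SD, n = 2 arrays, limma adjusted p = 0.583). Col1a2, the partner chain, had 35953 against 34541 and 44430 against 28989, with log2 ratios of 0.18 and 0.56 (adjusted p = 0.543 in limma). With median centring in place of loess, the larger ratio of Col1a2 was on the female array (0.44, against 0.08 on the male array). In processed signal, both Pparg-cKO pools exceeded both control pools for Col1a1 and for Col1a2, and the share of all genes separated in this way was not computed. Col3a1 had 44354 against 41573 and 42813 against 39150 (log2 ratios of 0.21 and -0.02 after loess, adjusted p = 0.922 in limma). Its processed signals did not overlap between groups either, while its loess-normalised male ratio was near 0.

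The chains of collagen V, which regulates the diameter of collagen I fibrils, had log2 ratios of both signs. Col5a1 had signals of 4483 against 4534 in the female pools and 6710 against 4189 in the male pools, and its log2 ratios were -0.08 and 0.76 (adjusted p = 0.765 in limma). Col5a2 was lower in both Pparg-cKO pools, with 1966 against 2021 and 1739 against 2236 (log2 ratios of -0.05 and -0.37, adjusted p = 0.753 in limma). Col5a3, which encodes a chain found in fewer tissues, was higher on both arrays, with 711 against 582 and 1213 against 608, and its pools did not overlap. Its log2 ratios were 0.31 and 1.02, a mean of 0.66 ± 0.50 (SD, n = 2 arrays, limma adjusted p = 0.390). None of these chains passed limma, and the difference between them was not tested.

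Col2a1, the fibrillar collagen of cartilage, had low signals of 106 against 77.2 in the female pools and 226 against 106 in the male pools, so the female Pparg-cKO and the male control pool were alike. Its log2 ratios were 0.31 and 1.01, a mean of 0.66 ± 0.49 (SD, n = 2 arrays, limma adjusted p = 0.388). Of 6 other cartilage markers measured, 3 (Matn1, Matn3 and Comp) were not well above background on both arrays. Acan had signals between 5.64 and 8.23, and Lect1 between 7.82 and 15.5. Hapln1, with signals between 215 and 342, gave log2 ratios of -0.08 and -0.63. The median log2 ratios of the 3 tested were -0.08 and -0.37. The summed signal of the 6 was 338 and 239 in the Pparg-cKO pools and 347 and 370 in the control pools. The part of these markers in the values of Col2a1 was not tested. Bone markers were low too, with a summed signal of 53.0 and 54.4 in the Pparg-cKO pools and 179 and 146 in the control pools. Of these, Bglap passed limma (adjusted p = 0.0120) in the direction opposite to Col1a1 and Col2a1, with 23.2 against 130 and 18.1 against 80.6. The remaining fibrillar genes, Col11a1, Col11a2, Col24a1 and Col27a1, had log2 ratios between -0.31 and 0.36 on either array. Over the 11 fibrillar genes the female median was -0.02 and the male median 0.36.

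On the male array the FACIT genes had the lowest median of the 4 classes, and Col16a1 stood apart from it. Collagen XII and collagen XIV link fibrils in dense connective tissue. Col12a1 had signals of 2498 against 2220 in the female pools and 2463 against 2400 in the male pools, and Col14a1 had 6091 against 5637 and 6284 against 6302. The mean log2 ratios were 0.13 ± 0.03 and 0.00 ± 0.05 (SD, n = 2 arrays, limma adjusted p = 0.836 and 0.999). Col16a1 had 3518 against 4181 and 6360 against 3713, which put Pparg-cKO below control in the female pair and above it in the male pair. Its log2 ratios were -0.27 and 0.80 (adjusted p = 0.886 in limma), and its next probe gave -0.21 and 0.46. The other 5 FACIT genes tested, Col9a1, Col9a2, Col19a1, Col20a1 and Col22a1, lay between -0.23 and 0.29. The class medians over 8 genes were 0.02 and 0.13.

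Collagen VI, the beaded microfibril of the pericellular matrix, was read through 6 genes. Col6a1 had signals of 9313 against 8612 in the female pools and 12389 against 8535 in the male pools (log2 ratios of 0.08 and 0.54). Col6a2 had 555 against 515 and 733 against 587 (0.12 and 0.38), and Col6a3 had 14133 against 13665 and 18848 against 12988 (0.00 and 0.56). All 3 stayed under 1.5-fold on both arrays, and their adjusted p in limma lay between 0.669 and 0.735. Both Pparg-cKO pools of Col6a1 and of Col6a3 exceeded both control pools, while the pools of Col6a2 overlapped. The later chains Col6a4, Col6a5 and Col6a6 gave log2 ratios between -0.24 and 0.24.

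Col25a1, a transmembrane collagen known from neurons and developing muscle, was the only collagen gene at least 1.5-fold lower on an array. Its signals were 86.6 against 182 in the female pools and 133 against 117 in the male pools, with log2 ratios of -0.90 and 0.22 (adjusted p = 0.835 in limma). Its other 3 probes gave -0.73 and -0.04, -0.49 and 0.24, and -0.02 and -0.25, so the probes did not share 1 pattern on the male array. Skeletal muscle markers had median log2 ratios of -0.35 and -0.43 over 5 genes, with summed signals of 7323 and 6329 in the Pparg-cKO pools and 7853 and 9040 in the control pools. Their part in the values of Col25a1 was not tested. The class of other collagens had medians of 0.00 and 0.22 over 17 genes, and Col8a1, Col8a2, Col10a1, Col23a1, Col26a1 and Col28a1 lay between -0.27 and 0.21.

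Genes that fold, modify, process, cross-link or bind collagen were read from fixed lists. Limma called 0 genes in any of them. Over all genes tested, limma called 0.751%, and 26.6% were higher and 26.2% lower on both arrays. Of 17 genes for chain folding and modification, 9 were higher and 1 lower on both arrays, with medians of 0.05 and 0.12. Serpinh1, the collagen chaperone of the endoplasmic reticulum, gave log2 ratios of 0.14 and -0.03. P4ha2, a prolyl hydroxylase subunit, was the 1 member above 1.5-fold on the male array (0.21 and 0.81). Of 12 processing and cross-linking genes tested, 3 were higher and 1 lower on both arrays, with medians of -0.05 and 0.21. There Bmp1, the protease that trims the carboxy-terminal propeptide, gave -0.10 and 0.68, and the cross-linking oxidase Lox gave 0.00 and 0.16.

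Among the 4 fibril-associated proteoglycans, Fmod, fibromodulin, had signals of 186 against 132 in the female pools and 315 against 142 in the male pools. Its log2 ratios were 0.36 and 1.24 (adjusted p = 0.374 in limma). Dcn and Lum, decorin and lumican, lay between -0.10 and 0.05, and Bgn gave 0.11 and 0.44. Of 10 collagen receptors, 3 were higher and 2 lower on both arrays, with medians of 0.07 and 0.04. Ddr1, the discoidin domain receptor of epithelia, had 227 against 193 and 446 against 192 (0.20 and 1.15, adjusted p = 0.532 in limma), whereas Ddr2, its counterpart in mesenchyme, gave -0.02 and -0.26. Itga10 gave 0.08 and 0.78, and Itga1 and Itgb1, subunits of a collagen-binding integrin, lay between -0.13 and 0.18. Fibroblast and lamina propria markers, from cells that make fibrillar collagen, had median log2 ratios of -0.10 and -0.01 over 5 genes, and smooth muscle markers -0.21 and -0.09 over 5 genes. The fibroblast sum was 57245 and 52584 in the Pparg-cKO pools and 57524 and 56573 in the control pools, and the smooth muscle sum was 95355 and 91286 against 104399 and 105248. Single fibroblast markers varied, with log2 ratios of 0.19 and 0.02 for Pdgfra, -0.69 and 0.11 for Dpt and -0.18 and -0.27 for Aldh1a2. The part of these markers in the values of the fibrillar and collagen VI genes was not tested.

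**Figure D4:**
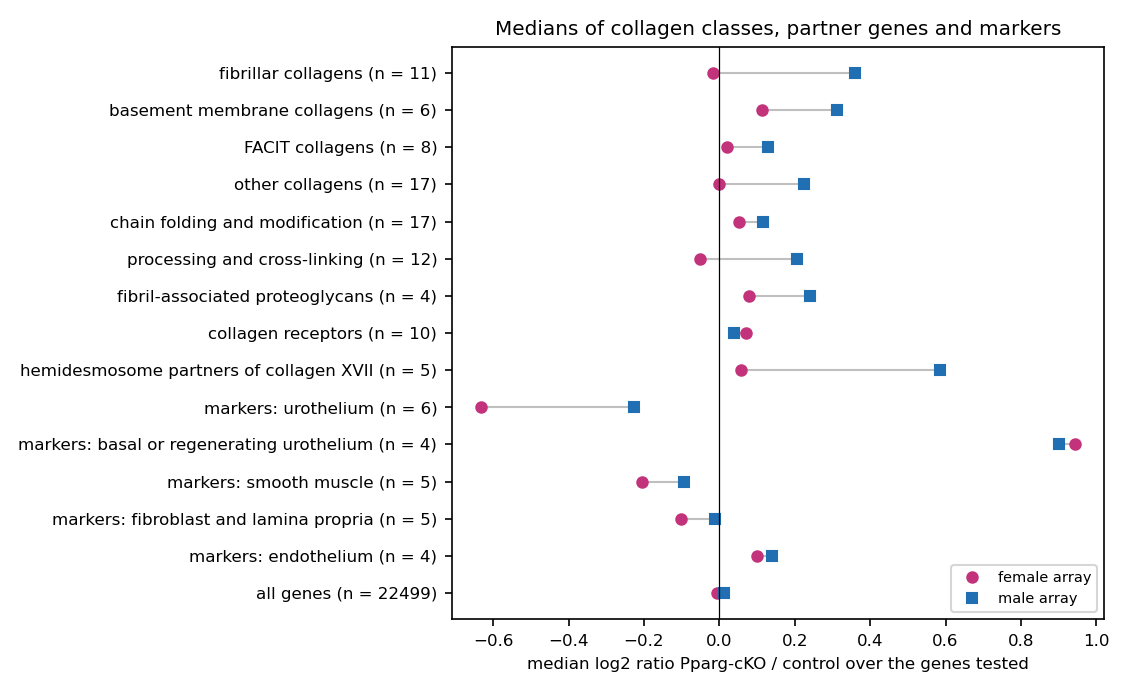
Median log2 ratio of Pparg-cKO over control on the female (circles) and male (squares) array for the collagen classes, lists of partner genes, marker lists and all genes, with the number of genes tested in brackets. The 4 collagen classes and the partners of collagen XVII lie further right on the male array, and the smooth muscle and fibroblast markers lie at or left of 0 on both.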

How the data were processed

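Pooled E18.5 ureter RNA was measured on 2 two-colour arrays. The deposited scanner files (Agilent Feature Extraction 10.7.3.1, per the labels) held spot intensity with background and processed signal, and per the file headers also a log10 ratio, which was not used. The deposited value table held a score, a signed fold change per probe. Its correlation with the log2 ratio of red over green processed signals was 0.948 on replicate 1 and -0.959 on replicate 2. Other values were computed with limma 3.58.1 in R 4.3.3: normexp background correction with an offset of 50, loess within arrays, control spots without weight, and spots flagged as outliers (2.87% and 3.24%) dropped. The 4 spots of a probe were averaged, and the brightest of a gene's probes stood for it. The test was lmFit and eBayes, two-sided, on the 2 ratios per gene, with Benjamini-Hochberg adjustment over 22499 genes. Each gene had 1 residual degree of freedom, and eBayes added a prior of 4.00 degrees of freedom estimated over all genes tested. The p-values thus rest on the spread between 2 arrays, drawn towards a spread common to all genes. Precision is limited by the number of arrays. Gene names and mm9 probe positions are those of the array design; exon structure was not analysed here. Alternatives were scanner-processed signals, no offset, median centring, all probes, the deposited table, no filter and each array alone. The code was tested on simulated data. Every collagen gene was accounted for: values in all pools are given for genes past 1.5-fold on an array and for a fixed list of chains, the rest by ranges. Members and lists were chosen with earlier results of these data known.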

Additional observations from a re-analysis of the deposited data

Results flagged for a closer look

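Col16a1 and Col18a1 were at least 1.2-fold lower in Pparg-cKO on the female array and at least 1.2-fold higher on the male array, with a signal of at least 100 on both. The male minus female difference of the log2 ratios was 1.07 for Col16a1 and 1.10 for Col18a1. Col25a1 had a difference of 1.13 (log2 ratios of -0.90 and 0.22), but its male ratio was under 1.2-fold. Of 14015 genes with such a signal, 1.73% differed by at least 1.2-fold in opposite directions, against 2 of 30 collagen genes (6.67%). The difference was not tested, because each sex had 1 array, and sex, dye orientation and array cannot be told apart.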

How the results depend on the processing

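The count of collagen genes past the fold rule was 0 under every planned setting that used both arrays, 10 without replicate 1 and 1 without replicate 2. Over all genes it was 258, and 1253 and 444 with either array alone. Without an offset, limma called 4 collagen genes (adjusted p between 0.0181 for Col17a1 and 0.0497 for Col4a5) and 571 genes in all, against 0 and 169. The deposited table gave 0 genes in all (2101 at an unadjusted p under 0.05) and no filter gave 94. For Col4a5, the collagen gene with the lowest p, the adjusted p ranged from 0.0497 to 0.533 over the alternatives. The count of 10 genes at least 1.5-fold higher on the male array was between 7 and 11 under the other settings, added after the data were seen, and 0 on the female array. The median of the basement membrane class was 0.12, and between 0.11 and 0.31 with either array alone. With both arrays, the fibrillar median of 0.17 became 0.30 with scanner-processed signals and 0.33 in the deposited table, the FACIT median of 0.07 became 0.13 with median centring, and the median of the other collagens, 0.10, ranged from 0.03 (deposited table) to 0.23 (no offset). With both arrays, 5 of 144 values over 24 genes and 6 settings changed sign: Col3a1 with median centring (-0.0195), Col4a4 with scanner-processed signals (-0.0126), and Col14a1 with no offset (-0.0058), median centring (-0.0285) and all probes (-0.0080). The cause was not tested. Another 4 were newly called (above), and 135 kept their direction and call. With 1 array there is no test. The female array alone had the sign opposite to the mean for 6 of the 24 genes: Col4a1 (-0.15 against 0.11), Col4a4 (-0.07 against 0.01), Col5a1 (-0.08 against 0.34), Col7a1 (-0.08 against 0.38), Col16a1 (-0.27 against 0.26) and Col18a1 (-0.31 against 0.24). The male array alone did so for 4: Col3a1 (-0.02 against 0.10), Col4a3 (-0.02 against 0.10), Col14a1 (-0.03 against 0.00) and Col25a1 (0.22 against -0.34). Median centring moved the median of all genes to 0.10 on the male array. With 2 arrays, a missed threshold does not show that a gene did not differ.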
